A study of Mus musculus with 9 samples.

Results

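The cytosolic ribosomal protein genes encode the proteins of the small and the large ribosomal subunit, and their open chromatin was followed here through blood stem and progenitor cells. Members were the protein-coding genes on mouse chromosomes 1 to 19 whose symbols are Rpl or Rps followed by a digit, or Rpsa, Rplp0, Rplp1 or Rplp2, with the Rps6k kinase genes left out. This gave 87 of 20665 protein-coding genes, of which 40 encode large subunit proteins, 30 small subunit proteins and 3 the acidic stalk. The other 14 are paralogues or genes with look-alike symbols. Some of these, such as Rps19bp1, whose product binds Rps19, are not ribosomal proteins. The rule uses no measured value.

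The assay was ATAC-seq, which uses the enzyme Tn5 to cut and tag DNA that is not packed away. Sorted populations of C57BL/6 mouse bone marrow were profiled, the long-term haematopoietic stem cell (LT-HSC) and its descendant, the multipotent progenitor (MPP). LT-HSC libraries were numbered KO 1, 2 and 4 and WT 2 and 3, and MPP libraries KO 1 and 2 together with WT 1 and 2. KO cells carry the genotype RXRα/RXRβ-KO, the loss of the retinoid X receptors alpha and beta, and WT cells are wild-type. The labels name no treatment. Cells came from pooled animals ("pulled" in the labels), and the labels name no driver of the deletion, no deleted segments and no age of the mice. The labels also do not say that libraries of a group came from separate pools, so each p-value reflects the spread between libraries, and this spread may be technical. The series asks, per its title, how the receptor relates to stem cell quiescence and to the pathway of MYC, a transcription factor that drives growth.

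Ribosomal proteins are made in fixed proportion to each other and to ribosomal RNA, and their genes are among the most actively transcribed in growing cells. Their promoters are short and usually lack a TATA box, and transcription starts at a C within a run of pyrimidines. The messenger RNAs therefore begin with a terminal oligopyrimidine (TOP) tract, through which growth signalling controls their translation. Stem cells keep protein synthesis low, progenitors make more protein, and MYC is a known activator of ribosomal genes. Loss of 1 copy of several of these genes causes Diamond-Blackfan anaemia, an inherited failure of red cell production.

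Because the peaks lie over promoters, the sequence around the start is shown for those members, among the 6 whose lead region had the largest called decrease in rank in LT-HSCs, that have a promoter entry. The lead region of a gene is the one held by most libraries among its regions near a gene end or, where it has none there, among all its regions. The windows hold the 80 bases before the annotated start and the 20 that begin with it (RefSeq, GRCm38.p6, the assembly behind mm10). Capitals mark the unbroken pyrimidine run that covers the start base, and a window without capitals has no pyrimidine there. The following 5 members ranked lower in LT-HSCs than in MPPs, as described below.
Rps10, chr17:27635225-27635324, minus strand: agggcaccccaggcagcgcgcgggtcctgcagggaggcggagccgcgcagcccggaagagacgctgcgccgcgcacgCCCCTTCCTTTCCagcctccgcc
Rpl7a, chr2:26910727-26910826, plus strand: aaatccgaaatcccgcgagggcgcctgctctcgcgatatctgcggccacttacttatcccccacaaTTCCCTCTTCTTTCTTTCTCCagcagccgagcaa
Rps15a, chr7:118116128-118116227, minus strand: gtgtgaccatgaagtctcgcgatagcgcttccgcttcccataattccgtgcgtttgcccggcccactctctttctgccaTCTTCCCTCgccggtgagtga
Rps12, chr10:23787190-23787289, minus strand: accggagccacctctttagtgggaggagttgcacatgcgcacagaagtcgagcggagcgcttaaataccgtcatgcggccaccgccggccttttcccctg
Rpl5, chr5:107900448-107900547, plus strand: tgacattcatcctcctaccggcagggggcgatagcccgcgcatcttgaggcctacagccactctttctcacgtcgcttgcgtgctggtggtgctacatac

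Of the members with the highest ranks over all libraries, 4 have a promoter entry, and their windows are given for comparison.
Rpl15, chr14:18270967-18271066, minus strand: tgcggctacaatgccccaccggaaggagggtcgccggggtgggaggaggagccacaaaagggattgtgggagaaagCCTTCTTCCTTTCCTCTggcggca
Rps21, chr2:180257299-180257398, plus strand: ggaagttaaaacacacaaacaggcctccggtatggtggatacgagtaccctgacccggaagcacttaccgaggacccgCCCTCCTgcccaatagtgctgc
Rpl27, chr11:101442165-101442264, plus strand: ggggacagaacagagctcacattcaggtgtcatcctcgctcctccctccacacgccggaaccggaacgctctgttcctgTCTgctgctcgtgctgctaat
Rpl37, chr15:5116533-5116632, plus strand: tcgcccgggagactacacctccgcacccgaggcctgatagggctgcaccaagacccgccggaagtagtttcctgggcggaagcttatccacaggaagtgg

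The runs over the start were 13 bases in Rps10, 21 in Rpl7a, 9 in Rps15a, 17 in Rpl15, 7 in Rps21 and 3 in Rpl27. The annotated start base was not a pyrimidine in Rps12, Rpl5 and Rpl37. An annotated start can lie some bases from the one used in a cell, so a missing run describes only this coordinate. Runs thus occurred both in members that ranked lower in LT-HSCs than in MPPs and in members with the highest ranks. The table held 78 starts of 66 of the 87 members. A run of at least 5 pyrimidines covered the start in 28.2% of them, against 8.66% of the 20085 starts of all protein-coding genes. A C followed by at least 4 pyrimidines, the strict TOP form, stood at 19.2% of member starts and 2.23% of all starts.

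Letter motifs were searched on both strands in the 300 bases from 250 before to 50 after each start. GGAAG, the core bound by ETS family factors such as GABPA, occurred in 93.6% of member promoters and 72.2% of all promoters. AAGATGGC, the core of the YY1 motif, occurred in 10.3% and 3.06%. Its letters can overlap those of GGAAG, and the joined form was found in 2 member promoters. GGGCGG, the GC box of SP1, occurred in 56.4% and 47.0%, and CACGTG, the E-box of MYC and its relatives, in 10.3% and 7.89%. AGGTCA, the letters of 1 arm of the sites that nuclear receptors including the RXRs bind as pairs, occurred in 12.8% of member promoters and 14.7% of all promoters. TATAAA occurred in 8.97% and 12.7%. With 1 start per member, taken where a start lies in a region, AGGTCA occurred in 3 of 58 promoters (5.17%). In that set GGAAG occurred in 93.1%, AAGATGGC and CACGTG each in 8.62%, GGGCGG in 63.8% and TATAAA in 6.90%. Starts of all genes were not chosen in this way, so the shares of all promoters are no matched background for it. These matches describe letters and not binding.

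The deposited peak lists held 22690 to 71586 peaks in LT-HSC libraries and 78189 to 86353 in MPP libraries, and the read depth of each library is unknown. The labels give only a mean over libraries, 25000000 paired-end reads. LT-HSC KO 1 and LT-HSC WT 3 had the shortest lists, with 22690 and 22878 peaks. Rxra had 21 regions and Rxrb 4. LT-HSC KO libraries held 0 to 14 of the Rxra regions and LT-HSC WT libraries 3 to 8, and MPP libraries held 14 and 16 (KO) and 13 and 14 (WT). This does not check the genotype labels, since the deleted segments are not given. All 8 LT-HSC marker genes (among them Slamf1, Hlf and Mecom) and all 3 MPP marker genes (Flt3, Cd34 and Cd48) had a region in at least 1 library of each cell type. The LT-HSC marker genes had 9 to 76 regions per LT-HSC library and 41 to 53 per MPP library. Of 4 markers of other cells (Cd3e, Itgam, Hbb-bt and Alb), 3 had a region in an LT-HSC library and 4 in an MPP library. Their regions numbered 0 to 6 per LT-HSC library and 11 to 13 per MPP library, with Cd3e at 0 in every LT-HSC library. Ly6a, the gene of the stem cell marker Sca-1, had a region only in LT-HSC KO 4. The part of other cells in the results below was not tested.

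The first question was where the members had open chromatin at all. Peaks overlapping by at least 1 bp were merged over the 9 lists into 117465 regions, and 118 of these lay in a member gene or within 1 kb of its ends. Of the 87 members, 81 had a region and 69 had a region held by all 9 libraries. For 11 more the best region was held by 8 libraries, and for Rpl37rt by 5. Most members had a compact pattern, with 50 genes showing 1 region, 25 showing 2, 5 showing 3 and 1, Rpl19, showing 4. Rpl18 was among those with 3.

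The 6 members with no region in any library were Rpl32l, Rpl10l, Rpl39l, Rpl31-ps12, Rps23rg1 and Rps27rt. All 6 are paralogues or look-alike symbols. Rpl10l and Rpl39l are known from the testis. Every large subunit, small subunit and stalk gene under its standard symbol had a region. Paralogues or genes with look-alike symbols that had open chromatin in all libraries were Rpl3l, known from muscle, Rpl7l1, Rpl22l1, Rpl36al, Rps27l and Rps19bp1. The Rpl3l region held by all 9 libraries, however, also lay within 1 kb of Msrb1, and the Rpl36al region within 1 kb of Mgat2.

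Of the 118 member regions, 108 lay within 1 kb of a gene end. After leaving out regions of a lone library 112 remained, and all 9 libraries held 73 of them, a share of 65.2%. The corresponding share was 41.4% for all regions near gene ends and 14.5% for all regions. By role, all 9 libraries held 36 of 59 large subunit regions, 29 of 39 small subunit regions and 3 of 3 stalk regions. They also held 6 of 12 regions of paralogues or look-alike symbols. Here and below a region shared by members of 2 roles counts under each. For comparison, the share was 52.0% for genes of ribosome biogenesis, 51.7% for translation factors and 43.3% for mitochondrial ribosomal proteins. In 20 of the 73 regions another protein-coding gene also lay within 1 kb, so the peak may belong to either promoter.

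Summits lay close to the annotated start. Among the 60 lead regions of genes with an annotated start, 53 overlapped it, 40 had their median summit within 100 bp and 50 within 200 bp. The median position was 54 bp upstream of the start (an offset of -54 bp), and 48 of the 60 summits lay upstream. Positions differed by a median of 55 bp between the libraries that held a region. At Rpl37, the strongest member, summit offsets were -125 to -117 bp over the 9 libraries, just outside the printed window, which itself holds 3 GGAAG matches. At Rps10 they spread from -110 to -22 bp, and at Rpl7a from -184 to -76 bp. Member regions were as wide as other gene-end regions, with a median of 730 bp against 740 bp.

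**Figure D1:**
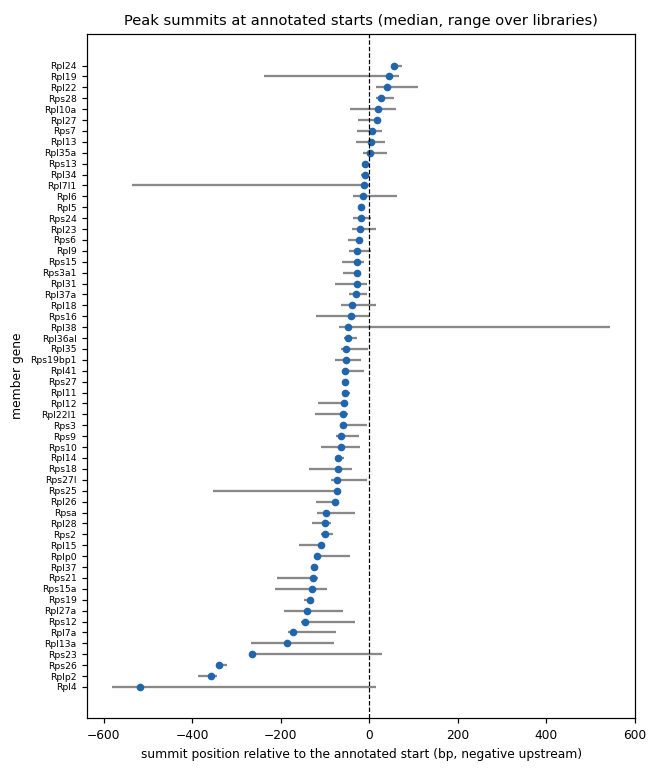
Position of the peak summit relative to the annotated start (x axis, bp, negative values upstream) for the 58 member genes with a region that overlaps a start (y axis). Points are medians and lines the range over the libraries that hold the region, and 44 of the 58 medians lie within 100 bp of the start.

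The second question was which cells hold the member regions. Of these 112 regions, LT-HSC KO 1, 2 and 4 held 67.0%, 80.4% and 90.2%, and LT-HSC WT 2 and 3 held 86.6% and 79.5%. For MPPs the share was 92.9% in KO 1, 96.4% in KO 2, 98.2% in WT 1 and 95.5% in WT 2. All LT-HSC libraries therefore lay below all MPP libraries, with 80.7% ± 8.87 (SD, n = 5) against 95.8% ± 2.23 (SD, n = 4). The 95% Wilson interval, which covers counting error only, was 57.8% to 75.0% for LT-HSC KO 1 and 93.7% to 99.5% for MPP WT 1. Regions near any gene end showed the same order, with 48.4% to 84.8% held in LT-HSC libraries and 89.0% to 92.4% in MPP libraries.

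All LT-HSC lists were shorter than all MPP lists, so the lists were also compared at equal length. Among the 22690 strongest peaks of each list, the length of the shortest, the member shares were 67.0%, 68.8% and 75.9% in LT-HSC KO 1, 2 and 4 and 77.7% and 79.5% in LT-HSC WT 2 and 3. They were 76.8% and 75.0% in MPP KO and 75.9% and 78.6% in MPP WT. At equal length LT-HSC WT libraries overlapped the MPP range, and LT-HSC KO 1 and 2 lay below all the others. The member share was 70.5% ± 4.72 (SD, n = 3) in LT-HSC KO and 78.6% ± 1.26 (SD, n = 2) in LT-HSC WT. With 3 libraries against 2, an exact permutation test cannot give p below 0.1, and none was run. Gene-end regions at equal length ranged from 47.1% to 53.0% over the 9 libraries. Member regions were thus among the strongest peaks more often than gene-end regions in every library.

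Of the 112 regions, 39 were not held by all libraries. Of 16 regions held by 8 libraries, LT-HSC KO 1 lacked 14, and LT-HSC WT 3 lacked the other 2, at Rpl17 and Rpl34-ps1. Over all 8248 such regions, 4650 were missing from LT-HSC KO 1 and 3270 from LT-HSC WT 3. Among the 14 were the lead peaks of Rpl12, Rpl26, Rpl32, Rpl35a and Rpl38 and the start region of Rpl19 (mm10 chromosome 11, 98026510 to 98027251). These genes had a peak in all the other 8 libraries, and the missing peak came from the shortest list. At Rpl22 the lead region, at the gene's end, was missing from both LT-HSC KO 1 and LT-HSC WT 3. A further 23 regions were held by 2 to 7 libraries and 6 by a lone library.

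In a two-sided Fisher's exact test of presence by cell type, 3 of 15 testable member regions (held by 3 to 6 libraries) were held by all 4 MPP and no LT-HSC library. Over all 52020 tested regions 31.9% were called in this direction, so 3 of 15 does not set members apart from other regions. No member region was called in the other direction, against 0.442% of all regions. For each of the 3, exact p was 0.00794, the smallest possible, and the Benjamini-Hochberg adjusted p 0.0245. Of the 15 testable member regions, 10 had an unadjusted p under 0.05, each held more often in MPPs. The share over all tested regions at this level is not given, so the count does not set members against other regions. The 3 regions were at Rpsa, encoding the laminin receptor protein of the small subunit (chromosome 9, 120133030 to 120133868), at Rpl3l (chromosome 17, 24730577 to 24731012) and at Rpl19 (chromosome 11, 98022457 to 98022817). None of them overlapped an annotated start. The Rpsa region lay beyond the gene's higher-coordinate end, the Rpl3l region inside the gene, and the Rpl19 region beside Cacnb1. With lists of equal length none of the 8 testable member regions was called in MPPs (21.1% of all regions). Instead the Rpl7 region was called in LT-HSCs, held by 5 LT-HSC and 0 MPP libraries (adjusted p = 0.0248, Fisher's exact test), where 10.9% of all regions were called.

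**Figure D2:**
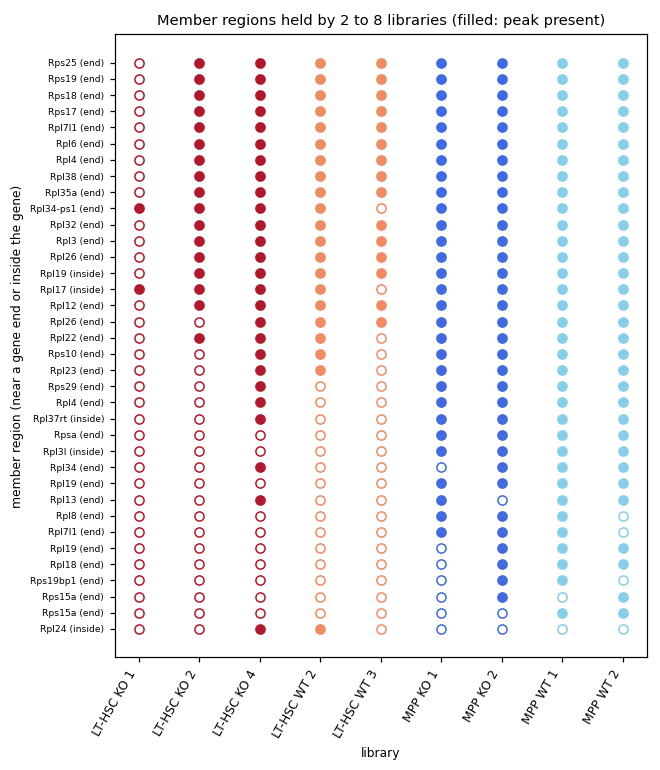
Presence of a peak (filled circle) or its absence (open circle) in each of the 9 libraries (x axis) for 36 of the 39 member regions held by 2 to 8 libraries (y axis, with gene and position near a gene end or inside the gene). Red and orange mark LT-HSC KO and WT, dark and light blue MPP KO and WT. The top rows are peaks missing only from LT-HSC KO 1 or LT-HSC WT 3, and the 3 regions at Rpsa, Rpl3l and Rpl19 are filled in the 4 MPP libraries only.

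No member region could be tested for presence by genotype, because none was distributed so that the exact test stratified by cell type could reach p under 0.05. Over all regions 1565 could be tested, 0 were called, and 39 had an unadjusted p under 0.05.

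The third question was how strong the common member peaks were in each cell type. Peaks were ranked within a list by the authors' -log10 q-value, and ranks were taken over the 13908 regions held by all 9 libraries. A percentile of 100 is the strongest of these regions and 0 the weakest. Percentiles within a list do not carry the number of cells or the depth of a library, so they show relative strength only.

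The 73 member regions spanned almost the whole range. At the top, Rpl37 had a mean percentile of 98.7 over the 9 libraries, Rpl15 96.0, Rps21 94.9, Rps29 92.6 and Rpl27 92.3. Rpl37, Rpl15 and Rpl27 encode large subunit proteins, and Rps21 and Rps29 small subunit proteins. Rpl15 varied little, from 93.1 to 97.9 over the libraries. At the bottom were Rpl8, whose protein lies near the peptidyl transferase centre, with 23.4, Rpl7l1 with 28.3, Rpl7 with 28.9 and Rpl24 with 30.8. Genes whose products are joined in fixed proportion in the ribosome thus differed widely in peak rank. The authors' own -log10 q-value of the lead peaks ran from 3.49 to 614.

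The median percentile of the 73 regions was 55.1, 56.2 and 64.7 in LT-HSC KO 1, 2 and 4, 62.6 and 76.2 in LT-HSC WT 2 and 3, 74.1 and 75.6 in MPP KO 1 and 2, and 75.7 in each MPP WT library. MPP libraries were alike, and LT-HSC libraries were lower except LT-HSC WT 3. In LT-HSC KO 1 and 2 the median lay below that of all common gene-end regions (58.8 and 57.1), and in the other 7 libraries it lay above. As a mean over libraries it was 63.0 ± 8.49 (SD, n = 5) in LT-HSCs and 75.3 ± 0.765 (SD, n = 4) in MPPs. Gene-end regions had 58.4 ± 3.77 and 65.1 ± 1.04.

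**Figure D3:**
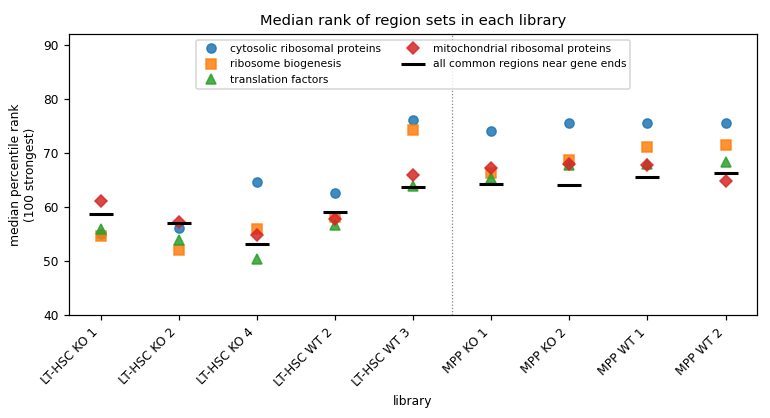
Median percentile rank (y axis, 100 strongest) of the common regions of 4 gene lists and of all common gene-end regions (black bars) in each library (x axis). The cytosolic ribosomal protein regions lie between 74.1 and 75.7 in the MPP libraries and between 55.1 and 76.2 in the LT-HSC libraries.

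Between cell types, 17 of the 73 member regions ranked lower in LT-HSCs than in MPPs and 2 ranked higher (limma on normal scores of the ranks, adjusted p under 0.05 over all 13908 regions). Over all common regions 14.9% were called lower and 15.3% higher. The median difference in normal score was -0.24 for members, -0.17 for gene-end regions and -0.047 for all common regions. Of the 73 member differences 55 (75.3%) were below 0, against 62.9% for gene-end regions and 53.1% for all common regions. The member median was -0.11 when only common regions near gene ends were ranked and -0.37 without LT-HSC KO 4. In percentile points the median difference was -10.2 for members and -4.73 for gene ends. All 5 LT-HSC libraries lay below all 4 MPP libraries in 17 regions (16.1% of all regions) and above them in 2 (15% of all regions). By role, 9 of 36 large subunit regions were called lower and 2 higher, 7 of 29 small subunit regions lower and none of 3 stalk regions. Of 6 regions of paralogues or look-alike symbols, 1 was called lower.

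Rps15a, of the small subunit, showed the largest difference among the called members. Its promoter peak (gene 267019, mm10 chromosome 7, 118115700 to 118116591) was at percentile 20.7, 14.6 and 8.89 in LT-HSC KO 1, 2 and 4 and 32.6 and 13.5 in LT-HSC WT 2 and 3. It was at 58.6 and 60.2 in MPP KO and 64.0 and 60.8 in MPP WT. The groups did not overlap, and LT-HSC KO and WT lay among each other. The normal score difference was -1.20 ± 0.213 (SE, limma, adjusted p = 0.00263).

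Rps10, another small subunit gene and a Diamond-Blackfan anaemia gene, had a different pattern (gene 67097, chromosome 17, 27635106 to 27635721). LT-HSC KO 1, 2 and 4 had percentiles of 7.90, 5.67 and 13.1, and LT-HSC WT 2 and 3 had 57.0 and 77.3. MPP KO had 67.3 and 71.5 and MPP WT 70.9 and 76.7. Only the 3 LT-HSC KO libraries were far down, and LT-HSC WT 3 lay above all MPP libraries. The cell type difference was -1.03 ± 0.196 (SE, limma, adjusted p = 0.00382).

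Rpl7a, of the large subunit, resembled Rps10 (gene 27176, chromosome 2, 26910299 to 26911282). Percentiles were 14.8, 5.10 and 25.0 in LT-HSC KO, 60.7 and 53.3 in LT-HSC WT, 68.3 and 62.0 in MPP KO and 77.0 and 73.3 in MPP WT. Each cell type and, within LT-HSCs, each genotype was separate. The cell type difference was -1.01 ± 0.219 (SE, limma, adjusted p = 0.00726). The Med22 gene also lies within 1 kb of this region.

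Rpl5 encodes a protein of the 5S ribonucleoprotein particle, which binds MDM2 when ribosome assembly is disturbed. Its peak (gene 100503670, chromosome 5, 107900320 to 107901316) was at 6.04, 28.6 and 8.83 in LT-HSC KO, 30.2 and 53.8 in LT-HSC WT, 59.0 and 61.7 in MPP KO and 66.2 in each MPP WT library. All LT-HSC libraries lay below all MPP libraries. The difference was -1.02 ± 0.246 (SE, limma, adjusted p = 0.0115).

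Rpl3, a large subunit gene whose protein reaches toward the peptidyl transferase centre, was spread widely among LT-HSC libraries (gene 27367, chromosome 15, 80083181 to 80083767). It was at 27.4, 10.2 and 64.7 in LT-HSC KO and 52.7 and 77.1 in LT-HSC WT, and at 82.9 to 87.3 in the MPP libraries. The groups were separate, but LT-HSC values spanned much of the scale. The difference was -1.12 ± 0.304 (SE, limma, adjusted p = 0.02). Ranked by fold enrichment, it was -0.50 with an adjusted p of 0.181.

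Rps12, of the small subunit, was high in both cell types (gene 20042, chromosome 10, 23786897 to 23787643). It was at 66.7, 65.2 and 45.8 in LT-HSC KO and 51.3 and 76.6 in LT-HSC WT, against 87.2 to 91.6 in MPPs. The difference was -0.99 ± 0.196 (SE, limma, adjusted p = 0.00455). The groups were separate, and LT-HSC values stayed near or above the middle of the scale.

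The remaining called regions with a lower rank in LT-HSCs were the lead regions of Rpl9, Rpl10a, Rpl27a, Rpl29, Rpl37, Rps3a1, Rps16, Rps19 and Rps27l, the start region of Rpl22 and the region beyond the end of Rps9. Rpl37 shows how small a shift could be called at the top of the scale, with 96.5 to 98.8 in LT-HSCs and 99.7 to 99.9 in MPPs. At Rps9 the start region did not differ in this way, with mean percentiles of 42.1 in LT-HSCs and 42.2 in MPPs.

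The exceptions in the other direction were Rpl21 and Rpl7, both of the large subunit. Rpl21 (gene 19933, chromosome 5, 146832677 to 146833439) was at 76.6, 75.5 and 72.1 in LT-HSC KO and 68.1 and 77.6 in LT-HSC WT, but at 53.8 and 56.0 in MPP KO and 54.4 and 60.3 in MPP WT. Rpl7 (gene 19989, chromosome 1, 16104103 to 16105527) was at 45.4, 64.4 and 28.3 in LT-HSC KO and 20.2 and 45.8 in LT-HSC WT, and at 12.1 to 17.1 in MPPs. In both, all LT-HSC libraries lay above all MPP libraries. The differences were 0.49 ± 0.152 for Rpl21 and 0.80 ± 0.254 for Rpl7 (SE, limma, adjusted p = 0.0352 and 0.0374). The Rpl7 region also lies within 1 kb of Rdh10, a retinol dehydrogenase gene.

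**Figure D4:**
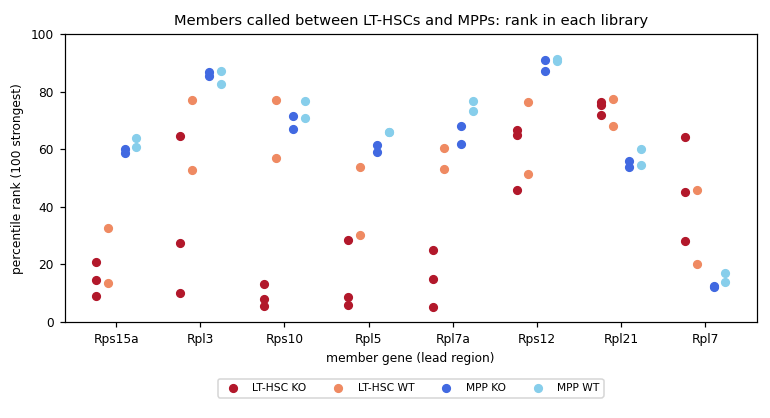
Percentile rank (y axis, 100 strongest) of the lead region of 8 members called between cell types (x axis), 1 point per library. Red and orange are LT-HSC KO and WT, dark and light blue MPP KO and WT. Rps10 and Rpl7a show LT-HSC KO below LT-HSC WT, while Rps15a shows LT-HSC KO and WT intermixed between 8.89 and 32.6.

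The cell type calls depended on the measure and on single libraries. Ranked by the authors' fold enrichment in place of the -log10 q-value, 14 member regions were called lower and 7 higher (15.5% and 16.5% of all regions), and the median difference was 0.021, with the opposite sign. An exact permutation test of each region over all cell type labellings called 0 members and 0 of all regions, with a smallest adjusted p of 0.0637 and 23 member regions (31.5%) at an unadjusted p under 0.05, against 39% of all regions. Without LT-HSC KO 4, 30 member regions were called lower (27.5% of all regions), and without LT-HSC WT 2 or any MPP library 6 or 7. The share over all regions is not given for the fits with 6 or 7, so members cannot be set against the rest there. The direction over members is thus not the same for all measures of peak strength, while Rps15a, Rps10, Rpl7a and Rps12 were called lower in each of the alternatives fitted with limma. Rpl3 and Rpl21 kept their direction but missed the threshold in 7 alternatives each, Rpl7 in 8 and Rpl5 in 5. Without the 2 shortest lists 24 of 90 member regions were lower and 1 higher (14.6% and 12.6% of all regions).

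**Figure D5:**
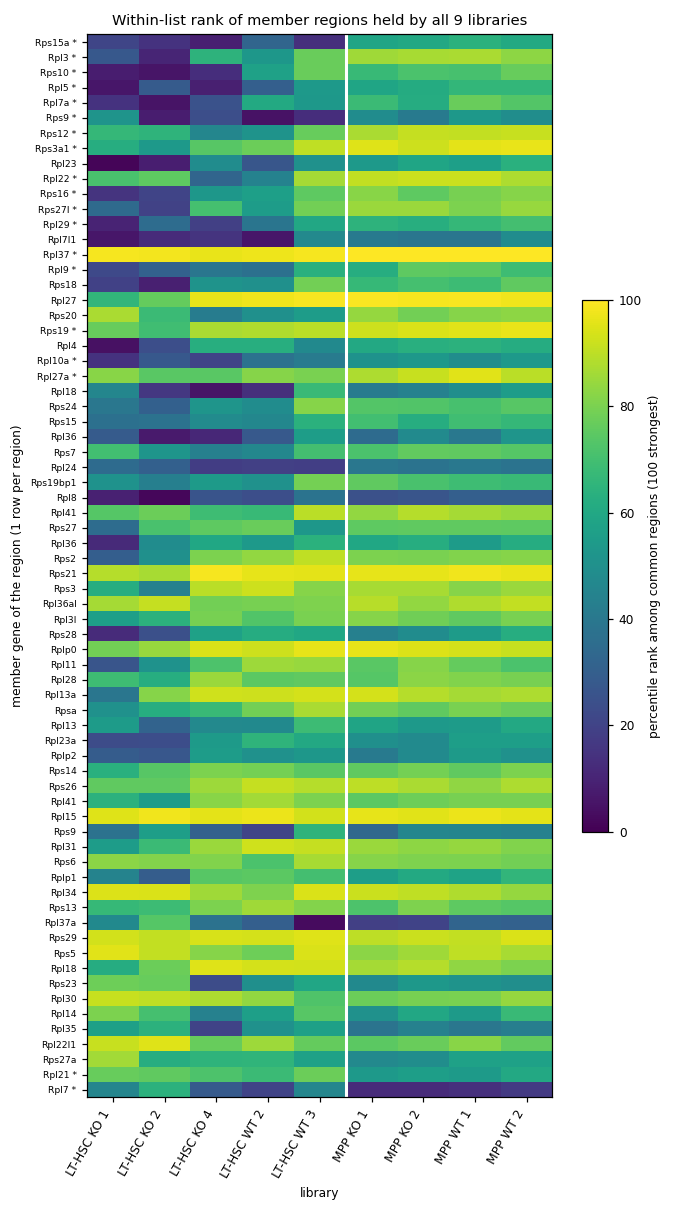
Percentile rank (colour, 100 strongest) of 70 of the 73 member regions held by all 9 libraries (rows, ordered by the cell type difference in normal score) in each library (columns, LT-HSC left of the white line). An asterisk marks an adjusted p under 0.05 for cell type, in 17 rows near the top and 2 at the bottom. LT-HSC columns are darker in the upper rows and differ among themselves, and MPP columns look alike.

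The fourth question was whether loss of the RXRs went with a change at the member regions. In LT-HSCs 0 of 73 member regions were called between KO and WT by limma in either direction, as were 0% of all regions. The smallest adjusted p of a member was 0.0780, and 23 member regions had an unadjusted p under 0.05, against 3559 of all 13908. The values leaned toward lower ranks in KO. The median normal score difference was -0.43 for members, -0.18 for gene-end regions and -0.046 for all common regions. Of the 73 member differences 56 (76.7%) were below 0, against 61.6% for gene-end regions and 52.5% for all common regions. In percentile points the median was -13.6 for members and -4.45 for gene ends. All 3 LT-HSC KO libraries lay below both LT-HSC WT libraries in 20 regions (15.5% of all regions) and above them in 2 (16.3% of all regions).

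The members with the smallest unadjusted p were Rps10, Rpl7a and Rpl11. The percentiles of Rps10 and Rpl7a are given above. This comparison and the cell type comparison share the LT-HSC libraries, so their values are not independent of each other. The KO minus WT difference in LT-HSCs was -1.84 ± 0.265 for Rps10 and -1.29 ± 0.296 for Rpl7a (SE, limma, adjusted p = 0.0780 for each). Rpl11 encodes the partner of Rpl5 in the 5S ribonucleoprotein particle (gene 67025, chromosome 4, 136053019 to 136053675). It was at 26.5, 50.8 and 72.1 in LT-HSC KO and 85.5 and 84.7 in LT-HSC WT, so the groups were separate but KO values were spread. Its difference was -1.05 ± 0.314 (SE, limma, adjusted p = 0.0999). In MPPs it was at 74.5 and 81.9 in KO and 76.3 and 71.6 in WT, which overlapped.

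The outcome of the LT-HSC genotype test changed with sample weights (in the closing section) and without LT-HSC KO 4. The reason was not tested. LT-HSC KO 4 had the longest list of the LT-HSC libraries. Without it, 36 of 73 member regions were called lower in KO and 5 higher, against 24.7% and 22.2% of all regions. The adjusted p (limma) of that fit was 0.000224 for Rps10, 0.000718 for Rpl7a and 0.000998 for Rpl11. Ranked by fold enrichment, only Rps10 among members was called lower in KO (difference -1.81, limma adjusted p = 0.0291) and none higher, where 0.144% of all regions were called lower and 0.985% higher. Without the 2 shortest lists, which leaves 2 KO libraries and 1 WT library, the member median was -0.18 over 90 regions.

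In MPPs 0 of 73 member regions were called between KO and WT (0% of all regions), none had an unadjusted p under 0.05, and 65 of all regions did. The median difference was -0.064 for members and -0.046 for gene ends, or -1.59 and -1.03 percentile points. Both KO libraries lay below both WT libraries in 21 regions (23.5% of all regions) and above them in 8 (23.2% of all regions). A fit of the MPP libraries alone, over 64003 regions of which 101 were at members, also called no member, where 1.9% of all regions were called lower and 1.91% higher. Rps19, the gene most often mutated in Diamond-Blackfan anaemia, had percentiles of 92.6 and 94.2 in KO and 95.4 and 96.8 in WT. Rplp0, of the stalk, had 96.2 and 94.9 in KO and 93.4 and 91.7 in WT. Rpl34, of the large subunit, had 91.9 and 90.6 in KO and 88.2 and 84.2 in WT. These were the members with the smallest unadjusted p, and their differences of -0.26 ± 0.244, 0.26 ± 0.280 and 0.26 ± 0.289 were about as large as their standard errors. The standard error pools the spread of all 4 groups, and LT-HSC libraries varied more. Sample quality weights were 0.0855 to 1.21 in LT-HSC and 3.11 to 3.47 in MPP libraries. The pooled spread is thus too wide for MPPs and too narrow for LT-HSCs, and 0 calls cannot show that MPPs were unchanged.

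Over both cell types together, 0 member regions were called (0% of all regions) and 6 (8.22%) had an unadjusted p under 0.05, against 10.9% of all regions. The smallest p values belonged to Rps10 (-0.98 ± 0.196), Rpl7a (-0.79 ± 0.219) and Rps3a1 (-0.46 ± 0.180), with limma adjusted p of 0.394, 0.394 and 0.424. Rps3a1, a small subunit gene, was at 62.2, 54.2 and 73.8 in LT-HSC KO and 77.6 and 90.6 in LT-HSC WT. In MPPs it was at 95.1 and 92.4 in KO and 95.7 and 96.7 in WT. KO lay below WT in each cell type, by much less in MPPs.

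The difference between the genotype effects in LT-HSCs and MPPs was called for 0 member regions (0% of all regions), and 6 (8.22%) had an unadjusted p under 0.05, against 8.37% of all regions. The leading members were Rps10 (-1.70 ± 0.393), Rpl37a (1.67 ± 0.614) and Rpl11 (-1.19 ± 0.465), each with a limma adjusted p of 0.577. Rpl37a, of the large subunit, went the other way from most members. It was at 47.5, 73.7 and 37.6 in LT-HSC KO, above 30.1 and 3.0 in LT-HSC WT, and at 19.1 and 20.2 in MPP KO, below 32.3 and 31.1 in MPP WT. Without LT-HSC KO 4, 21 member regions were called for a lower KO minus WT difference in LT-HSCs and 2 for a higher one (14.3% and 13.5% of all regions).

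Genes that act with the members were described the same way. Of 39 common regions of ribosome biogenesis genes (such as Ncl, Npm1 and Fbl), 6 were called lower in LT-HSCs than in MPPs and 0 higher, with a median difference of -0.31. Translation factors (such as Eif4e and Eef2) had 9 of 31 lower and 0 higher, with a median of -0.36. Mitochondrial ribosomal proteins had 9 of 61 lower and 3 higher, with a median of -0.26. Over all common regions, 14.9% were lower and 15.3% higher. The cytosolic members, at -0.24, therefore did not stand out among these lists in the cell type difference. By fold enrichment the medians were -0.16 for biogenesis, 0.049 for translation factors and -0.34 for mitochondrial ribosomal proteins. Between KO and WT LT-HSCs none of the lists had a called region, and medians were -0.26, -0.44 and -0.17 against -0.43 for the members.

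The 18 Diamond-Blackfan anaemia genes, all members, had 16 common regions. Of these 3 were called lower in LT-HSCs than in MPPs and 0 higher, namely Rps10, Rpl5 and Rps19. The difference was below 0 in 12, against 53.1% of all common regions. The 3 lower regions are 18.8% of the 16, close to the 14.9% of all common regions. Between KO and WT LT-HSCs 0 were called, with a median difference of -0.58 and 15 of 16 below 0. Over gene-end regions 61.6% and over all common regions 52.5% were below 0. Regions of a library are not independent, and the count rests on 3 libraries against 2. Their median percentile was 56.2, 66.1 and 73.7 in LT-HSC KO, 81.4 and 83.2 in LT-HSC WT, and 74.8 to 79.0 in MPPs. The KO libraries lay below both WT libraries, and the MPP values lay between those of LT-HSC KO and WT.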

How the data were processed

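ATAC-seq libraries of sorted LT-HSCs (3 KO, 2 WT) and MPPs (2 KO, 2 WT) were analysed from the authors' peak lists. The authors deposited 1 list per library, giving for each peak its position and summit, a fold enrichment (ratio to background), -log10 p-value and -log10 q-value, and a score for display. The submitters' processing notes name cutadapt 1.7, FastQC, Bowtie2, SAMtools 0.1.18, MACS2 2.1.1, DiffBind 2.6.6, edgeR 3.20.9, HOMER 4.10.3 and the build mm10, without their roles. Per the labels' protocols, reads were paired and 50 nt long. The sources used here do not state Tn5 shifting or duplicate removal. Depth per library is unknown, since no read counts were used.

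Peaks (540767) were merged where they overlapped by 1 bp or more. Genes came from RefSeq GRCm38.p6. Presence was tested by Fisher's exact test for cell type (in regions that 3 to 6 libraries held). Genotype used an exact test stratified by cell type. Normal scores of ranks of the -log10 q-value over the 13908 regions held by all libraries were fitted by limma 3.58.1 (R 4.3.3) with 4 group means. All p-values were two-sided and Benjamini-Hochberg adjusted over all tested regions, with a threshold of 0.05. The scripts (Python 3.11.15) were tested on simulated data.

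Replicate numbers were not used to pair libraries in the main fits, and the closing section gives fits with a replicate block. Members and gene lists were chosen with earlier results of these data known. Named were, per rank contrast, up to 6 members per direction whose lead region was called with the largest difference, or the 3 with the smallest p where fewer than 3 were called. The 5 highest and 5 lowest mean ranks, members with no region or a lead region missing from a library (the 10 missing from most), regions called by presence and the 3 members with most regions were also named. Other names (all called members, the range of Rpl15, and the start region of Rpl19) were chosen after their values were seen. Alternatives were another ranking, stricter peaks, a 100 bp overlap, other windows, equal list lengths, sample weights, a replicate block, and leaving out libraries. Chromosome X was not analysed here, and a few genes of the lists and members are not reported here by name.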

Additional observations from a re-analysis of the deposited data

Results flagged for a closer look

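Among 34 groups of 4 or 5 libraries checked for a library far from the others, 1 was flagged, and chance alone flags about 1 in 20. In MPPs the median percentile of the 73 common member regions was 74.1 in MPP KO 1, lower than 75.6 in MPP KO 2 and 75.7 in each MPP WT library. The gap is small beside the range of the LT-HSC libraries, from 55.1 to 76.2.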

How the results depend on the processing

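Depth per library and cell numbers are unknown, the 2 shortest lists are both from LT-HSCs, and replicates may be technical. Counts are of member regions called lower, then higher, in LT-HSCs (cell type, 17 and 2 as reported) or in KO (0 and 0 as reported). For cell type, ranking by fold enrichment gave 14 and 7 (15.5% and 16.5% of all regions) and a median of 0.021, of opposite sign. Requiring a -log10 q-value of at least 5 gave 1 higher, regions at annotated starts 0 higher and regions over 1 kb from other genes 1 higher. For these filters the lower counts and the shares over all regions are not given, so members cannot be set against the rest. The exact permutation test gave 0 and 0, with 0 calls over all regions. Rpl21 and Rpl7, the members called higher, have no promoter entry, so the filter on annotated starts leaves both out. Rpl7 lies within 1 kb of Rdh10, so the filter on other genes leaves it out. Without LT-HSC KO 1 and LT-HSC WT 3, an alternative chosen after seeing the data, 1 was higher (12.6% of all regions). Sample quality weights, which gave LT-HSC KO 4 the lowest weight (0.0855), yielded 35 and 5 (31.2% and 26.5% of all regions). Leaving out each library gave 6 to 30 lower and 0 to 5 higher, with the median from -0.37 to -0.17. The 30 lower came without LT-HSC KO 4 (27.5% of all regions), and shares over all regions are not given for the other libraries left out. Ranked among gene-end regions alone, the median was -0.11.

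For genotype in LT-HSCs, fold enrichment gave 1 lower (0.144% of all regions) and sample weights 27 and 2 (19.5% and 17.1% of all regions). Leaving out each library gave 0 to 36 lower and 0 to 5 higher, all from leaving out LT-HSC KO 4 (24.7% and 22.2% of all regions). The median ranged from -0.58 to -0.30 when leaving out each library, and was -0.18 without both short lists. Over both cell types, weights gave 26 and 1 (16.4% and 15.3% of all regions), and leaving out each library 0 to 24 lower, the 24 without LT-HSC KO 4 (12.5% of all regions). For the difference between genotype effects, weights gave 23 and 2 (17.4% and 15.6% of all regions), and leaving out each library 0 to 21 lower and 0 to 2 higher, the highest without LT-HSC KO 4 (14.3% and 13.5% of all regions). In MPPs, every alternative run called 0 member regions, including a fit of the MPP libraries alone over their own common regions. For presence, 5 kb windows called 10 of 51 tested regions in MPPs (31.9% of all regions). Equal list lengths called 0 of 8 in MPPs and 1 in LT-HSCs (21.1% and 10.9% of all regions). Leaving out each library called 3 to 6 of 5 to 10 tested in MPPs, where 50.5% to 89.5% of all regions were called. No named member that was called changed direction. The cause of these differences was not tested.

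Correlations between the deviations of same-numbered libraries were -0.056 to 0.035. Both MPP pairs of KO and WT gave -0.056, since deviations in a group of 2 libraries mirror each other. These values cannot show whether same-numbered libraries were prepared together. The main fits did not pair them. With a replicate block, cell type gave 33 lower and 4 higher with a median of -0.40 (27.1% and 24.5% of all regions). Genotype in LT-HSCs gave 35 and 11 with the block (33.4% and 31.3% of all regions), both cell types 30 and 7 (29% and 27.5%), and the difference between genotype effects 28 and 10 (30.2% and 28.1%). These block fits leave 2 residual degrees of freedom for cell type and 1 for genotype, and the latter comes from the MPP pairs.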
